A study of Mus musculus with 15 samples.

Results

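Neurotrophins and their receptors were followed through 5 genes of the 27803 in the deposited tables: the ligand genes Ntf3 and Bdnf, the Trk receptor genes Ntrk2 and Ntrk3, and Ngfr, the gene of the p75 receptor. The genes were chosen as a family, by name, with earlier results of these data known. Each was measured by Drop-seq, in which single cells are caught in droplets with barcoded beads and each captured transcript end is counted once as a unique molecular identifier (UMI). A level in CPM is the number of UMIs of 1 gene per 1000000 UMIs of all genes, summed over the cells of 1 class in 1 animal, so that the animal is the replicate.

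The study asked how the cells of Sonic hedgehog (SHH)-driven medulloblastoma resemble the cerebellar granule neuron progenitor (CGNP) lineage they come from, and how they respond to vismodegib, an inhibitor of the SHH receptor component SMO. The 15 mice form 3 groups of 5. WT animals were C57BL/6 mice whose cerebella were taken at postnatal day 7. The vehicle and vismodegib groups were M-Smo mice, which carry Math1-Cre and the SmoM2/EYFP allele, so that a constitutively active SMO is switched on where the cloned Atoh1 promoter drives Cre. Both received 3 daily injections from day 12, of the solvent alone or of vismodegib at 75 mg/kg, and their tumors were taken at day 15. WT mice have no injections listed. Their cells were captured on a different device from tumor cells, and without the human cells that were added to the tumor runs. WT and tumors differ in age and genotype as well, so these causes cannot be told apart in any comparison of tumors with WT.

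Neurotrophins are secreted proteins, made as precursors, that bind receptor tyrosine kinases of the Trk family. BDNF, the product of Bdnf, binds TrkB, the product of Ntrk2, while NT3, the product of Ntf3, binds chiefly TrkC, the product of Ntrk3. The p75 receptor binds every neurotrophin and also their precursors. In the cerebellum, progenitors divide in the external granule layer under SHH and then leave the cycle, extend axons and migrate inward, and neurotrophins are known for roles in the survival and migration of these neurons.

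In the GRCm38 build (GENCODE M21), Ntf3 lies on the minus strand at chr6:126101412-126166910 and Bdnf on the plus strand at chr2:109674700-109727007. Ntrk2 lies on the plus strand at chr13:58806569-59133970, Ntrk3 on the minus strand at chr7:78175959-78738012 and Ngfr on the minus strand at chr11:95568818-95587735. Of the 5 genes, Bdnf alone shares exon sequence with another gene, Gm45346 on the opposite strand. Counts were taken near transcript ends, so a level is compared for 1 gene across samples and never between genes, and the full-length and truncated receptors that Ntrk2 and Ntrk3 are known to encode were counted together.

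After filtering, 37946 of 51841 barcodes were kept as cells, with medians per animal of 1082.5 to 1625 UMIs per cell in WT, 1141 to 2597 in vehicle and 1183.5 to 2368 in vismodegib tumors. No pair of animals shared more than 13 of these barcodes. Cre transcripts gave 1 to 11 UMIs in each WT library and 1881 to 46714 in each tumor, in keeping with the genotypes. Cells were clustered without the 5 genes and named from marker lists, so each class below is a reconstruction and carries the ending "-like". Node A-like cells are led by genes of mitosis such as Mki67 and Top2a, Node B-like cells by the SHH and progenitor genes Gli1 and Atoh1, Node C-like cells by early neuronal genes such as Cntn2 and Nhlh1, and Node D-like cells by genes of maturing neurons such as Grin2b and Rbfox3. These 4 stages together are the CGNP-like cells, of which there were 5067 in WT, 17188 in vehicle and 11002 in vismodegib tumors. One tumor cluster of 1362 cells named Node D-like is led by hemoglobin genes, has a median of 881.5 UMIs and scored almost as high for Node C markers. It held 49.3% of the Node D-like cells of vehicle tumors and 14.9% of those of vismodegib tumors. Its part in the stage shares and in the levels of that stage was not tested beyond fits without it. In WT, 1 cluster of Node B-like cells is also led by hemoglobin genes. The tumors also divide into 2 sets known from earlier work on these counts and not named in the labels, with vehicle replicates 1 and 3 and vismodegib replicates 1, 2 and 3 in set 1. As the sets come from these same data, a smaller p with the set as a covariate is not separate evidence.

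Ntf3, the gene of NT3, was a gene of the last stage in every group. In WT Node D-like cells it stood at 86.2, 90, 63.3, 99.8 and 76.8 CPM in replicates 1 to 5. In the vehicle tumors the same stage held 58.6, 80.5, 50.6, 55.8 and 63.7 CPM, and in the vismodegib tumors 47.1, 56.5, 71.5, 93.8 and 140 CPM. The 3 groups overlap in this stage, and each of the 15 values lies above every value of the earlier stages, where no animal passed 19.0 CPM. From Node C-like to Node D-like cells Ntf3 rose 10.5-fold in WT (log2 change 3.40, SE 0.33, adjusted p = 2.68e-14) and 17.9-fold in the 10 tumors (log2 change 4.16, SE 0.22, adjusted p = 5.42e-22). These values come from edgeR's quasi-likelihood test on the sums, with the animal as a block and p adjusted by Benjamini-Hochberg over all genes tested.

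Earlier steps of Ntf3 were small in counts. In tumors it fell from Node A-like to Node B-like cells by 1.15 on the log2 scale (adjusted p = 0.0207) and rose from Node B-like to Node C-like cells by 1.62 (adjusted p = 0.000551), on 10 to 32 UMIs per stage and treatment. The first of these calls was lost in 5 of 16 alternative analyses, with adjusted p between 0.0124 and 0.236. In WT neither early step passed the test, with log2 changes of 1.00 (adjusted p = 0.317) and 0.10 (adjusted p = 0.889).

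Ntrk2, the gene of TrkB, climbed along the lineage. In WT its mean level, from Node A-like through Node D-like cells, was 37.7, 47.4, 93.4 and 236 ± 65.2 CPM (SD, n = 5). The vehicle tumors went from 25.4 and 27.0 CPM in the first 2 stages to 97.2 and 176 ± 48.4 in the last 2, and the vismodegib tumors from 33.3 and 29.1 to 138 and 223 ± 17.6. The order of the 2 proliferative stages was not resolved, since the log2 change from Node A-like to Node B-like cells was 0.39 in WT (adjusted p = 0.346) and -0.08 in tumors (adjusted p = 0.691). The step to Node C-like cells was a rise of 0.92 on the log2 scale in WT (adjusted p = 3.18e-05) and of 2.01 in tumors (adjusted p = 8.26e-22), and the step to Node D-like cells one of 1.25 (adjusted p = 3.16e-09) and 0.77 (adjusted p = 5.38e-09).

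Since astrocytes carry much Ntrk2, its level in the stages was also taken over cells without a UMI of the astrocyte markers Gfap, Aqp4, Slc1a2, Gja1 or Mlc1. Such UMIs were common in the stages too, and do not single out astrocyte RNA. Cells without them were 2175 of 3696 Node A-like cells in vehicle and 804 of 1674 in vismodegib tumors. In Node D-like cells the level over cells without these UMIs was 231 CPM against 225 in all cells in WT, 170 against 171 in vehicle and 233 against 235 in vismodegib tumors. The astrocyte-like list of 11 markers summed to 593 to 824 CPM in the CGNP-like cells of WT animals, 780 to 1237 in vehicle and 701 to 1069 in vismodegib tumors, so the tumor groups overlap.

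Ntrk3, the gene of TrkC, had a different profile in WT and in tumors. In WT Node B-like cells it was at 15.4 ± 5.44 CPM, fell to 3.62 ± 2.72 in Node C-like cells and rose to 31.8 ± 19.8 in Node D-like cells (each n = 5). The fall was 1.82 on the log2 scale (SE 0.52, adjusted p = 0.00256) and the rise 3.02 (SE 0.50, adjusted p = 9.59e-07). In the vehicle tumors it was highest in the proliferative stages, with 92.0 ± 24.2 CPM in Node A-like and 135 ± 32.0 in Node B-like cells, and then went down to 50.1 ± 23.2 and 22.4 ± 10.7 in the later ones. Over the 10 tumors Ntrk3 rose by 0.43 on the log2 scale into Node B-like cells (adjusted p = 0.00138) and fell by 1.47 into Node C-like cells (adjusted p = 2.39e-14). The last step, with a log2 change of -0.25 (95% interval -0.62 to 0.12, adjusted p = 0.285), did not pass the test over all 10 tumors. That value averages unlike treatments, since the level was lower in Node D-like than in Node C-like cells in 5 of 5 vehicle tumors and higher in 5 of 5 vismodegib tumors, whose means were 14.4 ± 2.58 and 18.1 ± 5.03 CPM. The step was not tested within each treatment.

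The WT rise at the end rests on few UMIs and a wide spread, with 39.2, 14.4, 31.7, 61.0 and 12.8 CPM from 15, 4, 3, 22 and 2 UMIs. The 7 markers of unipolar brush cells, glutamatergic neurons that leave the same germinal zone, moved with it. They summed to 507 to 794 CPM in WT Node D-like cells and to 233 to 301 in WT Node C-like cells. Ntrk3 was at 86.5 CPM in the 122 WT Node D-like cells with a UMI of Eomes or Lmx1a, pooled over animals, and only 7 of these cells held an Ntrk3 UMI. It was at 27.0 CPM in the other WT Node D-like cells, against 4.15 CPM in the Node C-like cells without those UMIs. In tumors the order was the reverse. Node D-like cells with such a UMI held 0 CPM in vehicle (20 cells) and 4.3 CPM in vismodegib tumors (97 cells), and the others held 21.0 and 20.3 CPM. The part of unipolar brush cells in the WT rise was not tested beyond these values.

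Ngfr, whose p75 product can pair with Trk receptors or signal alone, was lowest in the last stage of each group. Its WT means, in the order of the stages, were 36.9, 28.8, 48.8 and 17.3 CPM. In vehicle tumors these means were 59.6, 45.9, 27.2 and 15.6 CPM, and in vismodegib tumors 19.7, 14.7, 22.3 and 5.78 CPM. The drop from Node C-like to Node D-like cells passed the test in WT (log2 change -1.33, adjusted p = 0.000944) and in tumors (log2 change -1.38, adjusted p = 0.000221). Pooled over vehicle tumors, Node D-like cells held 26.3 CPM of Ngfr in the hemoglobin-led cluster 10 and 6.32 CPM in cluster 3, with no UMI in cluster 8. In WT Ngfr rose from Node B-like to Node C-like cells by 0.69 on the log2 scale (adjusted p = 0.0127), whereas over the tumors it fell at that step by 0.43 (adjusted p = 0.0499) and at the one before by 0.47 (adjusted p = 0.0194). The pooled fall into Node C-like cells also averages both treatments, and it was not tested within each treatment. The level was lower in Node C-like than in Node B-like cells in 5 of 5 vehicle tumors and higher in 4 of 5 vismodegib tumors. Among the latter, replicates 1 and 4 barely differed, with 14.7 and 15.0 CPM on 10 and 7 UMIs and 8.35 and 8.89 CPM on 10 and 15 UMIs. The WT call was lost in 3 of 11 alternatives and that of the tumors at the same step in 6 of 16, with adjusted p up to 0.31 and up to 0.442. The tumor call at the step from Node A-like to Node B-like cells was lost in 3 of 16, with adjusted p up to 0.172.

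Bdnf was near the limit of detection throughout the 4 stages, with a mean of at most 4.92 CPM in any stage and group. Its counts were too low to pass the filter for a stage test, and without the filter the log2 change from Node B-like to Node C-like cells of the tumors was -1.15 (adjusted p = 0.0148).

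**Figure D1:**
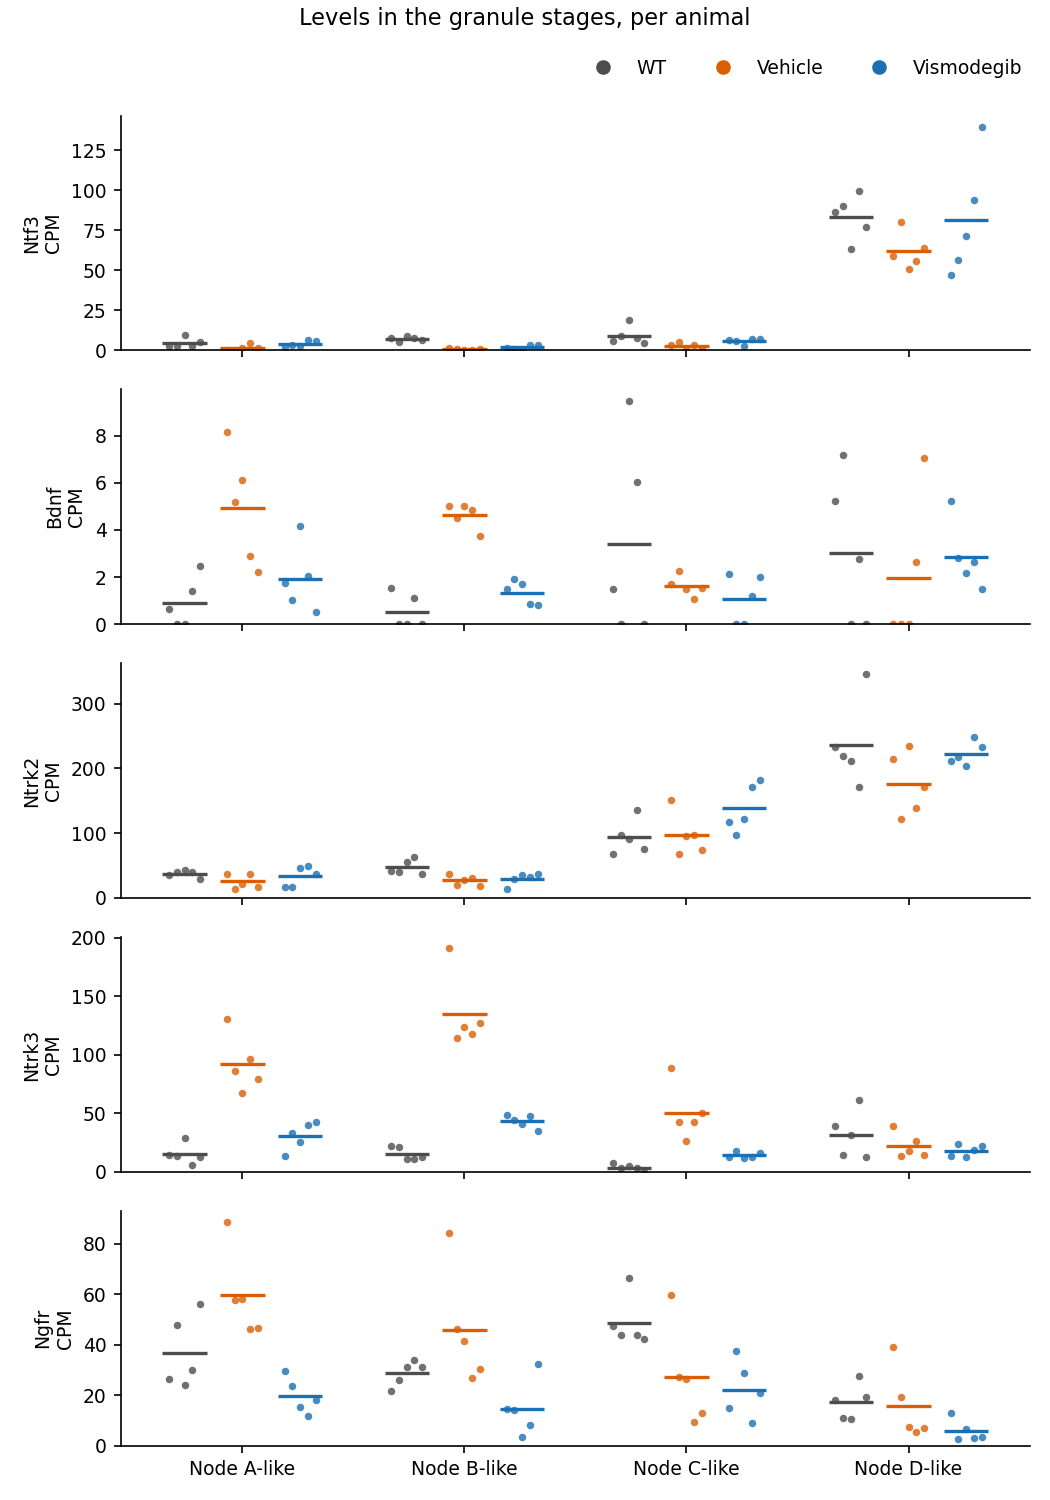
Level of each gene in CPM (y axis, linear, a scale of its own per panel) in the 4 stages of the CGNP lineage (x axis), with 1 point per animal, replicates 1 to 5 from left to right, and a line at the mean of the group. Ntf3 and Ntrk2 are highest in Node D-like cells of all 3 groups, while Ntrk3 is highest in Node A-like and Node B-like cells of the vehicle tumors.

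Of the 4 genes that passed the filter for the stage contrasts, 0 of 4, 3 of 4 and 4 of 4 were called in WT at the successive steps, where 6.74, 50 and 21.6% of all genes tested were called. At the first of these steps no unadjusted p of the 4 genes was under 0.05 in edgeR, and DESeq2 called 0 of 4 as well. In tumors, 3, 4 and 3 of 4 were called where 31, 70.2 and 45.3% of all genes were. Most genes thus differ between Node B-like and Node C-like cells in the tumors, and a call there is not particular to these genes.

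Vismodegib changed all 5 genes when the CGNP-like cells were taken as a whole, where 13% of all genes tested were called. Ntf3 and Ntrk2 rose, and Bdnf, Ntrk3 and Ngfr fell. A sum over all stages also moves with how many cells of each stage a tumor holds, and the stage shares differed: Node D-like cells were 9.09% of CGNP-like cells in vehicle tumors on average (range 6.24 to 12.4%) and 37.7% in vismodegib tumors (25.2 to 56.3%), whereas Node B-like cells went from 49.3 to 23.7%. In any such sum, more cells of a kind and more RNA per cell cannot be told apart. Each gene was therefore also read within stages and with every tumor given the same stage shares.

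For Ntf3 the lineage levels were 4.89, 5.64, 3.98, 6.50 and 3.25 CPM in vehicle and 10.9, 13.9, 16.5, 40.3 and 65.0 CPM in vismodegib tumors. The groups do not overlap, and the 2 highest values are the 2 vismodegib tumors of set 2. The rise was 6.36-fold (log2 change 2.67, SE 0.47, adjusted p = 0.00224), and it was 2.75 on the log2 scale with the set as a covariate (adjusted p = 6.9e-05, and 2.99e-07 to 0.00843 over the 19 alternatives). Within Node D-like cells, the stage that carries the gene, the log2 change was 0.49 (95% interval -0.04 to 1.02, adjusted p = 0.641), and without the hemoglobin-led cluster it was 0.13. In the earlier stages, where it was below the filter, the log2 changes without a filter were 1.43, 1.39 and 1.25 (adjusted p = 0.374, 0.502 and 0.556).

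When each tumor was given the mean stage shares of the 10 tumors, Ntf3 was at 15.5 ± 3.04 CPM in vehicle and 21.7 ± 9.51 CPM in vismodegib tumors, and the difference no longer passed (2-sided exact permutation test, p = 0.222). With the tumors' own shares, the same weighted level was 6.73 ± 1.68 against 37.1 ± 28.6 CPM (exact p = 0.00794, the smallest that 252 splits of 5 against 5 tumors allow). Clusters inside the stage also differed in level when their cells were pooled over tumors, so that differences between tumors and between clusters are mixed in these values. In vismodegib tumors the pooled level of Ntf3 was 150 CPM in cluster 8, 73.3 in cluster 3 and 32.1 in the hemoglobin-led cluster 10, and in vehicle tumors 97.7, 80.1 and 31.9 CPM. Cluster 8 made up 35.4% of the Node D-like cells of vismodegib tumors and 5.56% of those of vehicle tumors.

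Ntrk2 gave 65.0, 32.3, 50.8, 54.3 and 31.0 CPM in the lineage of vehicle and 73.7, 78.2, 91.1, 148 and 143 CPM in that of vismodegib tumors, again with no overlap. It rose 2.35-fold (log2 change 1.23, SE 0.26, adjusted p = 0.00682), and all 19 alternatives kept the call. In no single stage did it pass the test, the log2 changes being 0.50, 0.17, 0.58 and 0.38 from Node A-like through Node D-like cells, with adjusted p of 0.659, 0.83, 0.331 and 0.537. With equal stage shares the means were 76.9 ± 19.9 and 98.9 ± 15.5 CPM (exact p = 0.0952). Without vehicle replicate 1 that difference was 28.8 CPM and passed (exact p = 0.0476).

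Ntrk3 fell within Node A-like, Node B-like and Node C-like cells as well. In Node B-like cells the vehicle tumors held 191, 114, 124, 117 and 127 CPM and the vismodegib tumors 48.6, 44.6, 40.8, 47.6 and 35.0 CPM. Every vehicle value lies above every vismodegib value, and the fall was 3.05-fold (log2 change -1.61, SE 0.17, adjusted p = 0.000188). In Node A-like cells the values were 131, 85.9, 67.2, 96.3 and 79.6 against 13.9, 32.9, 25.1, 39.8 and 42.5 CPM, a fall of 2.77-fold (log2 change -1.47, SE 0.24, adjusted p = 0.00284).

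In Node C-like cells, where the vehicle tumors held 88.5, 42.4, 26.5, 43.0 and 49.9 CPM of Ntrk3, the vismodegib tumors held 12.8, 18.1, 12, 13 and 16 CPM. The groups do not overlap there either, and the fall was 3.33-fold (log2 change -1.73, SE 0.29, adjusted p = 0.00726). The stage is made up of cluster 4, which held 56.5% of its cells in vehicle and 30.2% in vismodegib tumors, and cluster 2. Pooled over tumors, Ntrk3 was at 78.2 CPM in vehicle and 40.4 CPM in vismodegib cells of cluster 4, and at 14.6 and 5.89 CPM in those of cluster 2. The part of this mixture in the fall was not tested. In Node D-like cells, where Ntrk3 did not pass the filter, the means were 22.4 ± 10.7 and 18.1 ± 5.03 CPM and the log2 change without a filter was -0.07 (adjusted p = 0.96).

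Over the whole lineage Ntrk3 was at 154, 86.5, 79.4, 88.6 and 94.7 CPM in vehicle and 24.7, 31.6, 24.3, 27.4 and 28.6 CPM in vismodegib tumors. This is a fall of 3.63-fold (log2 change -1.86, SE 0.18, adjusted p = 8.06e-05), and with the set as a covariate the log2 change was -1.86 as well (adjusted p = 1.24e-05, and 5.35e-19 to 0.000497 over the 19 alternatives). With equal stage shares the level went from 82.2 ± 22.6 to 28.9 ± 3.15 CPM (exact p = 0.00794). The mixture of clusters within a stage also differed between the treatments, cluster 0 holding 48.7% of Node B-like cells in vehicle and 29% in vismodegib tumors. The level pooled over tumors in the 3 Node B-like clusters was 97.0 to 158 CPM in vehicle and 37.9 to 45.7 CPM in vismodegib tumors, and in the 3 Node A-like clusters 72.7 to 97.2 and 27.6 to 44.5 CPM.

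The share of Node B-like cells with an Ntrk3 UMI was 20.6% in vehicle and 8.5% in vismodegib tumors on average, and 5.92% and 1.57% when each cell was thinned to 500 UMIs. Microglia-like cells, which should lack the gene, had a UMI in 4.15% and 0.854% of cells, or 2.07% and 0.177% when thinned, at a median of 2157 UMIs per cell against 1456.5 to 1703 in the Node B-like clusters. On average the shares of Node B-like cells lie above those of microglia-like cells in both groups, but in vismodegib replicate 4 the thinned share was 0.637% in Node B-like and 0.885% in microglia-like cells.

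Ngfr fell in the lineage from 79.0, 45.1, 42.8, 28.7 and 33.6 CPM in vehicle to 18.5, 19.4, 12.8, 7.43 and 14.2 CPM in vismodegib tumors. The groups do not overlap, and vehicle replicate 1 is the highest by far. The fall was 3.19-fold (log2 change -1.67, SE 0.29, adjusted p = 0.00196). In Node A-like cells the values were 88.8, 57.7, 58.4, 46.2 and 46.8 against 29.6, 23.6, 15.3, 11.9 and 17.9 CPM, a fall of 3.14-fold (log2 change -1.65, SE 0.24, adjusted p = 0.0015). Cluster 7 held 24.5% of the Node A-like cells of vehicle and 51.1% of those of vismodegib tumors, and its pooled Ngfr level was the lowest of the 3 clusters of the stage in both, at 39.4 and 12 CPM. The part of this shift in the falls of Ngfr and Ntrk3 in the stage was not tested.

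In Node B-like cells the Ngfr values overlapped, with 84.4, 46.4, 41.5, 26.9 and 30.4 CPM in vehicle and 14.7, 14.2, 3.40, 8.35 and 32.6 CPM in vismodegib tumors. Their log2 change of -1.52 did not pass (SE 0.41, adjusted p = 0.0586), though it did in 8 of 19 alternatives, among them that with the set as a covariate (adjusted p = 0.0235, and 0.000432 to 0.129 over all of them). In Node C-like cells it was -0.24 (95% interval -1.13 to 0.65, adjusted p = 0.903). With equal stage shares Ngfr went from 37.3 ± 19.1 to 15.2 ± 5.15 CPM (exact p = 0.00794), a difference of -22.1 CPM that was -14.1 CPM without vehicle replicate 1.

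Bdnf had 129 UMIs in the CGNP-like cells of vehicle tumors and 41 in those of vismodegib tumors. The levels were 4.89, 4.09, 4.48, 3.25 and 2.99 CPM against 2.38, 1.45, 2.29, 1.94 and 1.19 CPM, which do not overlap. The fall was 2.17-fold (log2 change -1.12, SE 0.31, adjusted p = 0.0309), and the call was lost in 8 of 19 alternatives, with adjusted p of 0.0196 to 0.0933. The share of CGNP-like cells with a Bdnf UMI was lower in vismodegib tumors by a difference of -0.40 percentage points, but the difference was 0.0252 points when each cell was thinned to 500 UMIs. Within stages Bdnf was below the filter, and without it the log2 changes of -1.38, -1.83, -0.46 and -0.0009 from Node A-like to Node D-like cells did not pass (adjusted p = 0.433, 0.157, 0.884 and 0.999). With equal stage shares the level went from 3.40 ± 0.312 to 1.74 ± 0.52 CPM (exact p = 0.00794).

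**Figure D2:**
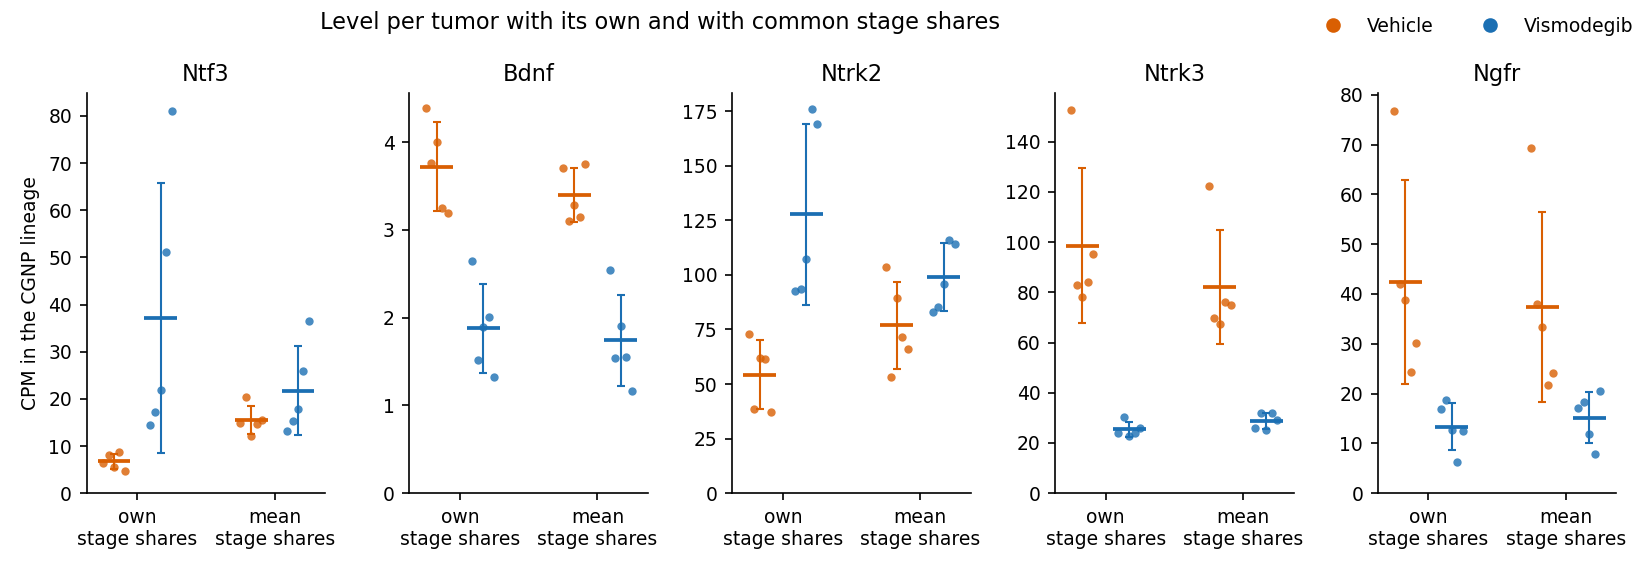
Level of each gene in the CGNP lineage in CPM (y axis) of each of the 10 tumors, weighted by the tumor's own stage shares or by the mean shares of all 10 tumors (x axis), with points for tumors and lines and bars for the mean ± SD of vehicle and vismodegib. With equal shares the tumors overlap for Ntf3 and Ntrk2 and stay apart for Bdnf, Ntrk3 and Ngfr.

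Counted by stage, from Node A-like to Node D-like cells, 2 of 3, 1 of 3, 1 of 3 and 0 of 2 genes that passed the filter were called. All of these calls were falls, of Ntrk3 in the first 3 stages and of Ngfr in the first. Over all genes 2.23, 3.12, 0.749 and 0.275% were called in those stages. For Node D-like cells the 2 genes had unadjusted p of 0.0879 for Ntf3 and 0.0476 for Ntrk2 in edgeR, and DESeq2 gave no call to them either.

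Whether the effect of vismodegib differed between stages was tested as an interaction of stage with treatment, for which 12.1% of all genes were called. Among the 4 genes tested, Ntrk3 (adjusted p = 0.000221) and Ngfr (adjusted p = 0.00419) were called. For Ntrk3 the log2 change in Node D-like cells was 1.35 above that in Node A-like cells, and for Ngfr the change in Node C-like cells was 1.5 above it. Ntf3 (adjusted p = 0.341) and Ntrk2 (adjusted p = 0.561) were not called.

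Some marker lists moved with the treatment in the same sums. The 7 unipolar brush cell markers summed to 239 to 274 CPM in the CGNP-like cells of vehicle and 355 to 519 CPM in those of vismodegib tumors, and the 9 Neuron-like markers to 1351 to 2210 and 2729 to 3592 CPM. No marker of either list was at 0. Their part in the changes of the 5 genes was not tested.

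The vehicle tumors were then compared with WT, and since they are the same vehicle tumors, the changes below and those under vismodegib share their control samples. In the CGNP-like cells 4 of 5 genes were called, where 44.7% of all genes were. Ntrk3 was at 17.4, 13.1, 15.2, 14.4 and 9.80 CPM in WT, far below each vehicle tumor, and was 6.58-fold higher in the tumors (log2 change 2.72, SE 0.21, adjusted p = 3.31e-07). The difference was there in Node A-like (log2 change 2.67, adjusted p = 1.42e-06), Node B-like (2.97, adjusted p = 6.76e-08) and Node C-like cells (3.36, adjusted p = 1.51e-05). In Node D-like cells it was -0.77 without a filter (adjusted p = 0.223), on means of 31.8 ± 19.8 in WT and 22.4 ± 10.7 CPM in vehicle tumors. WT and tumor cells were clustered separately, so a stage need not hold the same mixture of cells in both. Pooled over animals, vehicle Node C-like cells held 78.2 CPM of Ntrk3 in cluster 4, with 56.5% of the cells, and 14.6 CPM in cluster 2. WT clusters 3 and 5 of that stage held 4.75 and 3.90 CPM. The part of this mixture in the differences was not tested.

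Ntf3 was lower in the vehicle tumors over the lineage as a whole, where WT held 14.3, 22.5, 16.1, 19.0 and 15.1 CPM. The fall was 3.82-fold (log2 change -1.93, SE 0.27, adjusted p = 4.83e-05). Node D-like cells, the stage with the highest means of Ntf3 and Ntrk2 in WT and in the vehicle tumors, were 19.4% of CGNP-like cells in WT and 9.09% in vehicle tumors on average, and the part of this shift in the lineage falls of both genes was not tested. Within Node D-like cells the log2 difference was -0.58 (95% interval -1.05 to -0.11, adjusted p = 0.0701), and it was -0.12 without the hemoglobin-led clusters (adjusted p = 0.779). In Node B-like cells the gene was below the filter, with 21 UMIs in 1832 WT cells and 12 UMIs in 8792 vehicle cells, and a test without the filter gave a log2 change of -3.19 (adjusted p = 4.91e-05).

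Ntrk2 gave 67.1, 90.1, 73.9, 90.2 and 85.5 CPM in the WT lineage and was 1.87-fold lower in vehicle tumors (log2 change -0.90, SE 0.21, adjusted p = 0.00227). It was lower in Node B-like cells (log2 change -1.05, adjusted p = 0.0031). In Node A-like, Node C-like and Node D-like cells the log2 changes of -0.73, -0.16 and -0.53 did not pass (adjusted p = 0.068, 0.652 and 0.063).

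Bdnf, on 17 UMIs in WT, was at 1.55, 1.45, 1.89, 2.65 and 0.891 CPM there and 2.04-fold higher in vehicle tumors (log2 change 1.03, SE 0.37, adjusted p = 0.0347). The call was kept in 7 of the 13 alternatives that gave Bdnf an adjusted p (0.0244 to 0.149). Further alternatives gave it none and are not counted. In Node A-like and Node B-like cells Bdnf was below the filter, and without it the log2 changes were 2.17 (adjusted p = 0.0469) and 2.64 (adjusted p = 0.0173). In Node C-like and Node D-like cells, without the filter too, they had the opposite sign and did not pass, at -0.97 (adjusted p = 0.456) and -0.57 (adjusted p = 0.726).

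Ngfr did not pass over the lineage (log2 change 0.31, 95% interval -0.15 to 0.76, adjusted p = 0.298), where WT held 28.9, 33.4, 35.0, 34.5 and 41.0 CPM and overlapped the vehicle tumors. It did in Node C-like cells, at 47.4, 43.9, 66.5, 43.7 and 42.3 CPM in WT and 59.6, 27.2, 26.5, 9.44 and 13.1 CPM in vehicle tumors. The fall there was 1.09 on the log2 scale (SE 0.37, adjusted p = 0.0317). It held in 11 of the 17 alternatives that gave it an adjusted p (0.00137 to 0.081). Vehicle replicate 1 lies within the WT range there. In Node A-like and Node B-like cells the log2 changes of 0.58 (adjusted p = 0.0918) and 0.47 (adjusted p = 0.232) had the opposite sign and did not pass.

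In the same order of stages, 1 of 3, 2 of 3, 2 of 3 and 0 of 2 genes were called against WT, where 33.9, 36.5, 29.6 and 27.1% of all genes were. For the 2 of the last stage the unadjusted p was 0.0216 for Ntf3 and 0.0187 for Ntrk2 in edgeR, and DESeq2 called neither. The interaction of stage with group, called for 12.9% of all genes, was called for all 4 genes tested: Ntrk3 (adjusted p = 9.49e-12), Ngfr (2.94e-06), Ntf3 (0.00173) and Ntrk2 (0.0103). For Ntrk3 the log2 change in Node D-like cells minus that in Node A-like cells was -3.59.

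**Figure D3:**
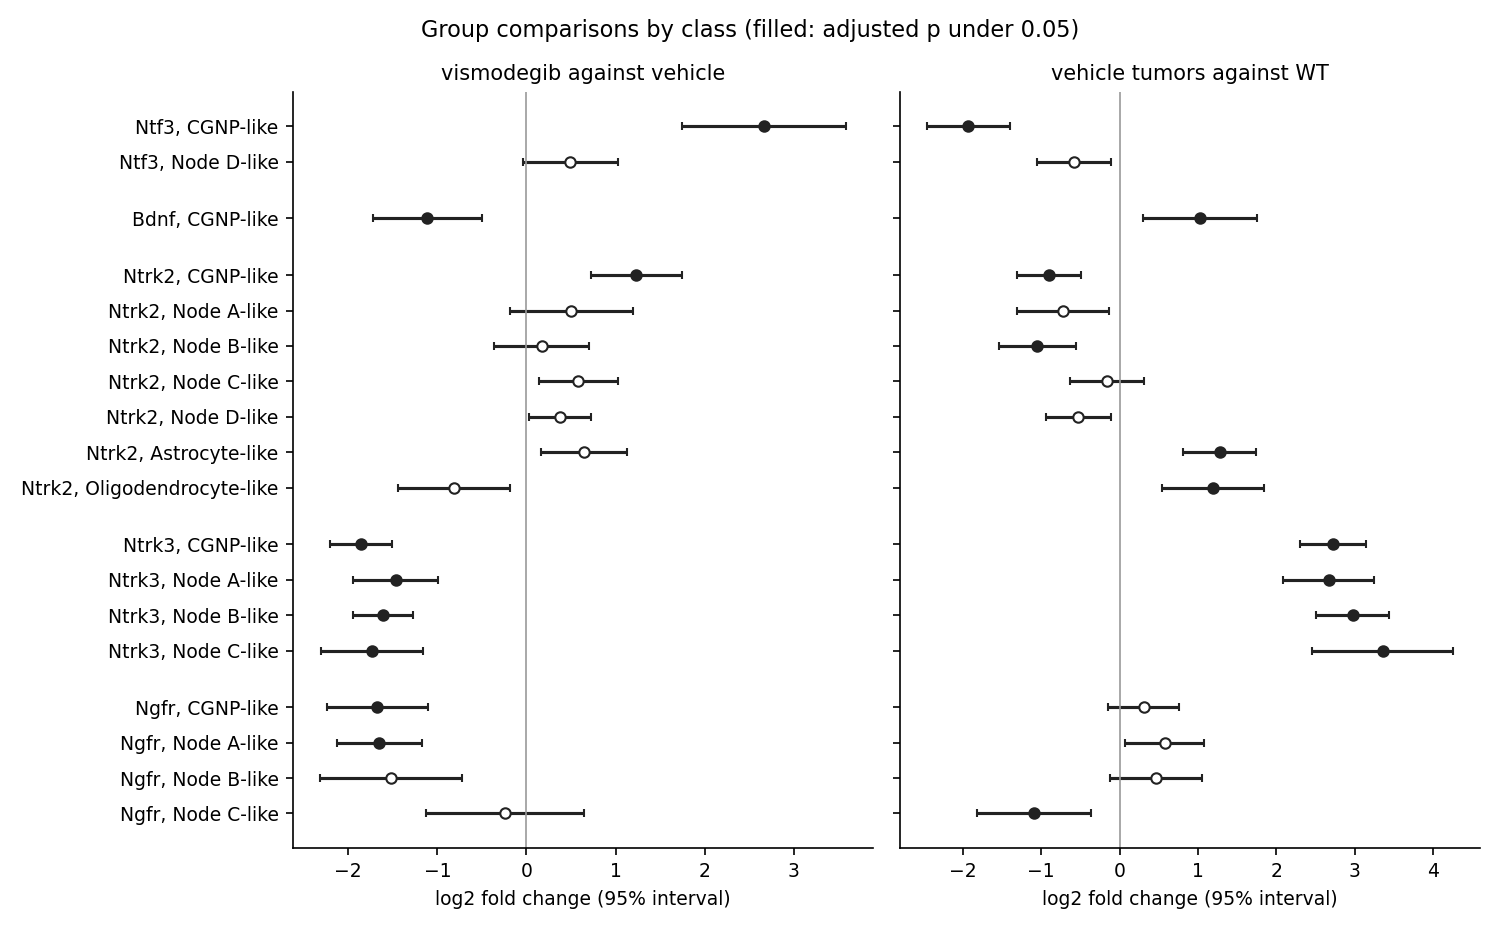
Log2 fold change (x axis) with its 95% interval for each gene and class that passed the filter, for vismodegib against vehicle (left) and vehicle tumors against WT (right), with filled points for an adjusted p under 0.05 in edgeR. Ntrk3 is lower under vismodegib and higher in vehicle tumors than in WT in all 3 stages tested, while Ntf3 and Ntrk2 are called over the lineage and not within Node D-like cells.

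Outside the lineage Ntrk2 had its highest mean in Astrocyte-like cells, with 298, 243, 231, 303 and 331 CPM in WT. In vehicle tumors, of which replicate 3 had too few such cells, it was 897, 444, 553 and 802 CPM in replicates 1, 2, 4 and 5, and in vismodegib tumors 1234, 989, 913, 971 and 967 CPM. Every tumor value lies above every WT value. The WT values overlap those of WT Node D-like cells, of which replicate 5 was higher than each of them at 346 CPM.

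Ntrk2 was 2.42-fold higher in Astrocyte-like cells of vehicle tumors than of WT (log2 change 1.28, SE 0.24, adjusted p = 0.000163), 1 of 1 gene tested where 26.8% of all genes were called. The log2 change under vismodegib of 0.65 (95% interval 0.17 to 1.13, unadjusted p = 0.0161, adjusted p = 0.262) did not pass, and 0 of 1 gene was called where 1.03% of all genes were. DESeq2 called it (adjusted p = 0.0499), and none of the other 17 alternatives did, with adjusted p up to 0.572. The share of vismodegib Astrocyte-like cells with an Ntrk2 UMI was 77.3%, or 31.5% when thinned to 500 UMIs, against 3.98% and 1.49% of Microglia-like cells, at medians of 1792 UMIs per cell in the cluster of the former and 2157 in that of the latter.

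In Oligodendrocyte-like cells Ntrk2 was at 60.3, 257, 76.5, 95.7 and 59.6 CPM in WT and 299, 251, 276, 212 and 186 CPM in vehicle tumors. WT replicate 2, with 17 UMIs, falls among the tumors. The gene was 2.28-fold higher in vehicle tumors (log2 change 1.19, SE 0.33, adjusted p = 0.00953), 1 of 1 gene tested where 26.6% of all genes were called. Under vismodegib, where replicate 3 had too few cells, the log2 change was -0.81 (95% interval -1.44 to -0.19, unadjusted p = 0.0196, adjusted p = 0.19), and 0 of 1 gene was called where 3.91% of all genes were.

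Ordered by its means in vismodegib tumors, Ntrk2 went from 1015 ± 126 CPM in Astrocyte-like cells to 223 ± 17.6 in Node D-like and 215 ± 74.6 in Neuron-like cells, whose ranges overlap. Below them came 145 ± 80.8 CPM in Oligodendrocyte-like, 138 ± 36.9 in Node C-like and 108 ± 27.2 in Vascular fibroblast-like cells, which overlap each other as well, and the highest Oligodendrocyte-like value, 265 CPM, lies among those of the classes above. The highest Node C-like value, 183 CPM, also lies above 3 of the 4 Neuron-like values. Microglia-like cells held 15.2 ± 10.2 CPM. Of the WT classes, GABAergic interneuron-like cells stood at 115 ± 43.7 CPM and Purkinje-like cells at 4.22 ± 4.32 CPM, the latter on 2 UMIs.

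The level of Bdnf in CPM was highest in the Neuron-like cells of tumors, a cluster led by Gabra6 and Cbln3, which are known from mature granule neurons. These cells were not counted among the 4 stages, and whether they are a later part of the granule lineage was not tested. In vehicle tumors with at least 10 such cells it was at 53.4, 219, 148 and 110 CPM in replicates 1, 2, 4 and 5, on 1, 4, 6 and 5 UMIs, and in vismodegib tumors at 44.2, 298, 142 and 76.3 CPM, on 1, 10, 34 and 13 UMIs. The treatments overlap. All 8 values lie above every value of the CGNP-like cells, which reached 4.89 CPM at most. Single values elsewhere reached this range on a few UMIs, with 48.0 CPM on 4 UMIs in Oligodendrocyte-like cells of vehicle replicate 3 and 56.1 CPM on 2 UMIs in Vascular fibroblast-like cells of vismodegib replicate 3. In GABAergic interneuron-like cells of WT Bdnf had 0 UMIs in 592 cells, which allows up to 9.86 to 55.7 CPM in single animals.

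Ntf3 was also present in Neuron-like cells, at 55.5 ± 51.6 CPM in vehicle and 61.6 ± 18.8 in vismodegib tumors (n = 4 each), a range that overlaps Node D-like cells. GABAergic interneuron-like cells of WT held 20.4 ± 9.28 CPM. In every other class outside the 4 stages its mean was at most 3.27 CPM. In Vascular fibroblast-like cells it had 0 UMIs in 153 WT, 126 vehicle and 163 vismodegib cells, and the limit of 3 UMIs that a count of 0 allows is worth 15.6 to 128 CPM in the animals with at least 10 such cells, so a level as in Node D-like cells can be told from 0 there only in the deepest of them.

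Ngfr and Ntrk3 both marked Purkinje-like cells, the inhibitory output neurons of the cerebellar cortex, in which the marker Calb1 gave 3164 UMIs over 106 cells. Ngfr was at 166, 216 and 104 CPM in the 3 WT animals with at least 10 such cells, and Ntrk3 at 80.7, 58.8 and 69.1 CPM, on 20, 3 and 8 UMIs. Each Ngfr value lies above those of every other WT class, none of which passed 66.5 CPM in any animal. For Ntrk3 the WT Node D-like value of 61.0 CPM in replicate 4 and the Vascular fibroblast-like values of 60.3 and 74.0 CPM in replicates 4 and 5, on 6 and 3 UMIs, overlap the Purkinje-like range.

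Ntrk3 was at 13.9, 0, 28.7, 31.9 and 0 CPM in Oligodendrocyte-like cells of WT and at 88.8, 77.4, 72.0, 38.6 and 61.4 CPM in those of vehicle tumors, which do not overlap. In vismodegib tumors it was at 15.7, 0, 10.3 and 18.0 CPM. These values rest on at most 3 UMIs in a WT animal, 6 to 27 in a vehicle tumor and at most 5 in a vismodegib tumor. The gene was below the filter in this class, and without it the log2 changes were 1.87 for vehicle against WT (adjusted p = 0.0127) and -2.06 for vismodegib against vehicle (adjusted p = 0.0308). In Microglia-like cells of the vehicle tumors it was at 25.0 ± 27.2 CPM (n = 4), on 12 UMIs, and the part that RNA from other cells has in these levels was not tested.

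**Figure D4:**
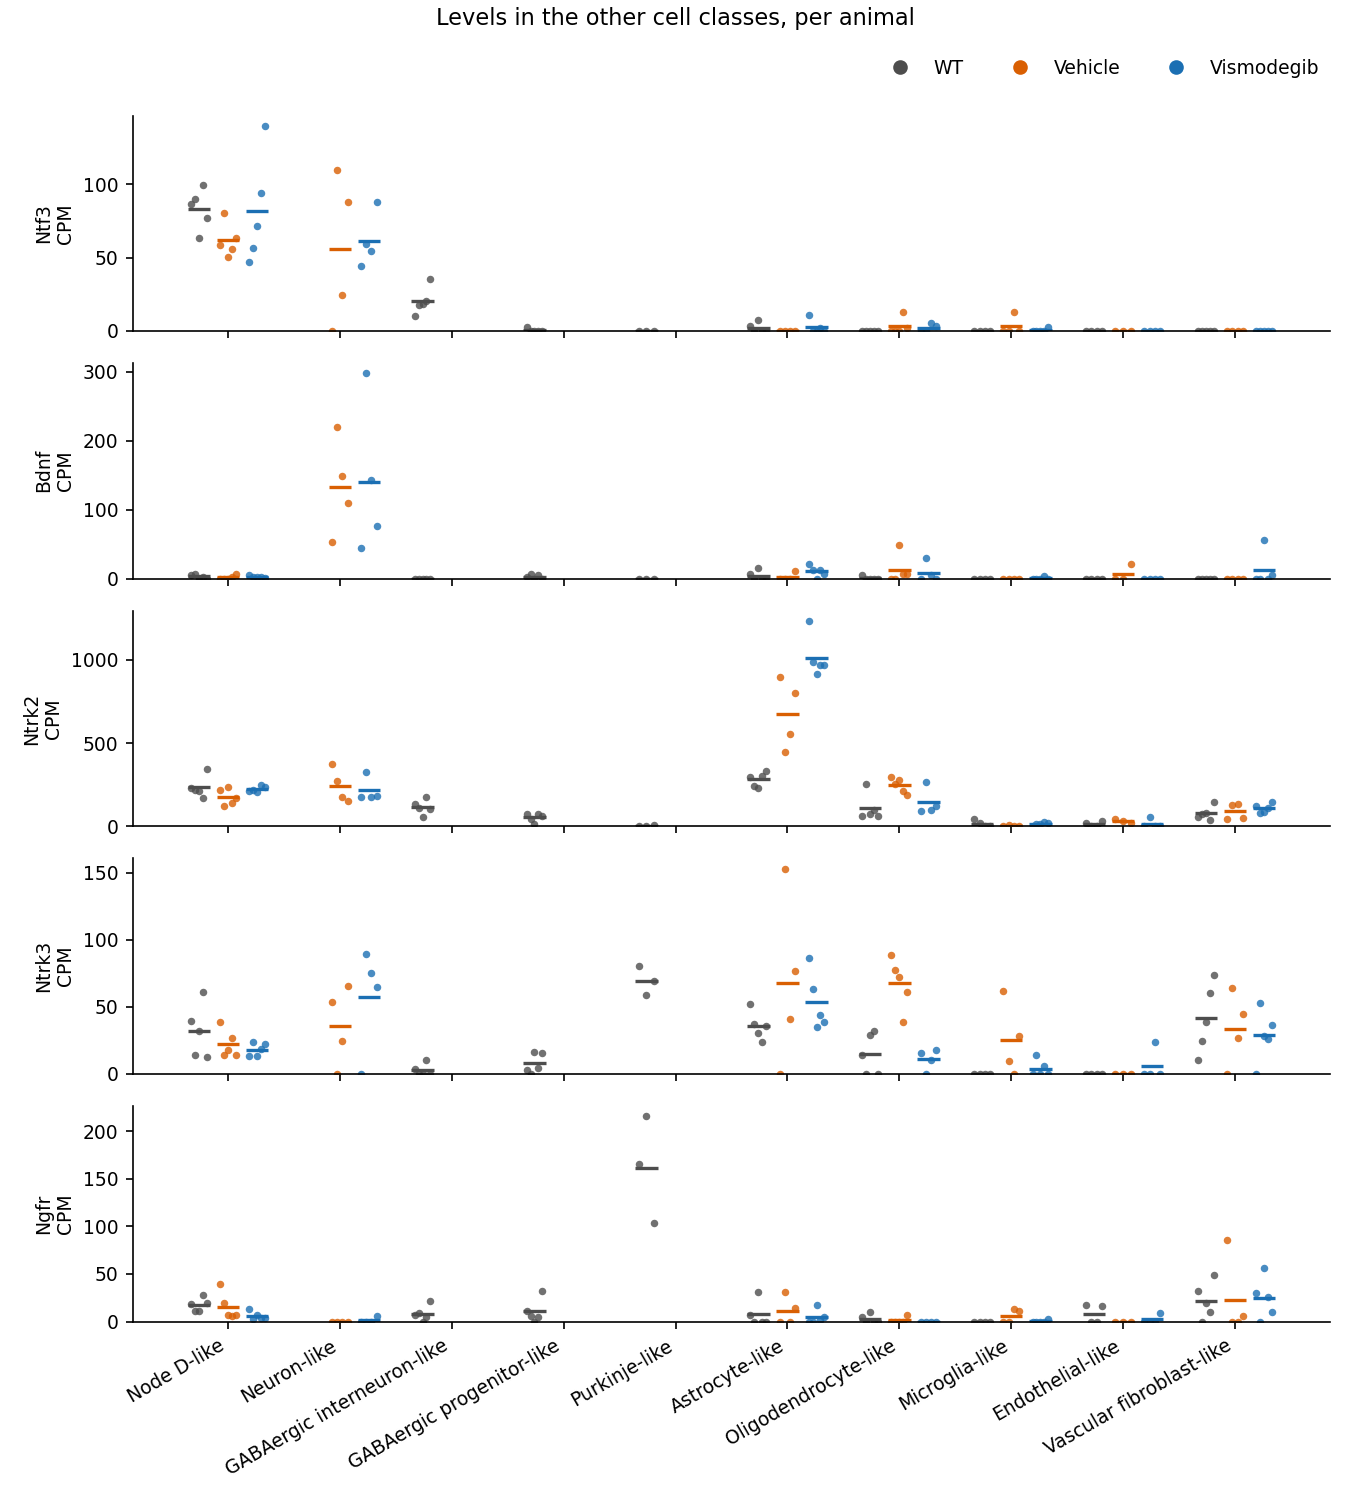
Level of each gene in CPM (y axis, linear, a scale of its own per panel) in Node D-like cells and 9 classes outside the 4 stages (x axis), with 1 point per animal of at least 10 cells and a line at the group mean. The highest means are those of Astrocyte-like cells for Ntrk2, where WT overlaps Node D-like cells, of Neuron-like cells for Bdnf and of Purkinje-like cells for Ngfr.

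The other genes of neurotrophin signaling were read from 7 lists of 74 genes in all. In CGNP-like cells 62 genes were tested, and under vismodegib 4 were higher and 7 lower, where 13% of all genes were called, with a median log2 change of -0.01 beside 0.00 over all genes. Of 9 genes known to respond to Trk signaling and to other growth factor receptors, 4 fell, of 8 further receptors and co-receptors 1 rose and 1 fell, of 21 Trk adaptors 2 rose and 1 fell, of 7 genes of receptor cleavage 1 rose, and of 12 partners of p75 1 fell. None of 5 genes of proneurotrophin processing was called.

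The largest of these changes under vismodegib was a fall of Etv5, a transcription factor downstream of ERK signaling, by 3.46 on the log2 scale (adjusted p = 0.000187). It went from 31.5, 14.1, 18.9, 7.32 and 16.3 CPM in vehicle to 1.90, 2.61, 1.37, 0.914 and 1.45 CPM in vismodegib tumors, without overlap. Dusp6, a phosphatase that ERK signaling induces and that acts back on ERK, fell from 50 ± 5.12 to 16.2 ± 4.72 CPM (log2 change -1.64, adjusted p = 0.000171). Both were called in Node A-like and in Node B-like cells too.

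Sorcs2, a sortilin family receptor that can bind proneurotrophins together with p75, fell from 11.3 ± 4.05 to 2.08 ± 1.05 CPM (log2 change -2.45, adjusted p = 0.000736). Its relative Sort1, the sortilin gene, rose from 24.7 ± 6.39 to 43.2 ± 12.4 CPM (log2 change 0.81, adjusted p = 0.0268), a call kept in 13 of 19 alternatives (adjusted p 0.00192 to 0.0729). The immediate early gene Fos (log2 change -0.85, adjusted p = 0.049) kept its call in 9 of 19 alternatives (adjusted p 0.00809 to 0.139). Spry2, an inhibitor of receptor tyrosine kinase signaling (log2 change -0.83, adjusted p = 0.0424), did in 11 of 19 (adjusted p 0.0018 to 0.0993).

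In vehicle tumors against WT, 18 of the 62 genes were higher and 8 lower, a share near the 44.7% called over all genes, with a median log2 change of 0.15 beside 0.05 over all genes. The list that responds to Trk and other signaling gave 5 higher and 1 lower of 9, and the Trk adaptors 7 higher and 1 lower of 21. Fos was at 25.0 ± 9.63 CPM in WT and 374 ± 96.8 in vehicle tumors (log2 change 3.84, adjusted p = 2.37e-08), and Etv5 at 2.75 ± 0.684 and 17.6 ± 8.88 CPM (log2 change 2.55, adjusted p = 0.000101).

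The adaptors Dok5 (log2 change 2.45, adjusted p = 0.000844) and Shc2 (1.88, adjusted p = 1.12e-05) and the receptor gene Sorcs2 (2.15, adjusted p = 0.000284) were higher in vehicle tumors. Vgf, a secreted neuropeptide precursor that neurotrophins induce, was lower, at 8.43 ± 4.75 CPM in WT and 2.64 ± 1.55 in vehicle tumors (log2 change -1.84, adjusted p = 0.00705).

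The genes whose profile was most like each member's were taken from 10106 genes over 32 profiles, each the mean log2(CPM + 10) of a class in a condition. Profiles of 1 condition share animals, so these correlations are descriptions. For Ntf3 they were Cdh7 (Pearson r = 0.93), Adamts18, Tenm1, Nos1 and Dpf3, and for Ntrk2 they were Pfkm (r = 0.88), Sat2, Dtna, Trim9 and Gpm6b. Bdnf followed Grin2c (r = 0.96), Cbln3, Gabra6, Kcnk3 and Crtam, of which Cbln3 and Gabra6 lead the Neuron-like cluster. The likeness was lower for Ntrk3, with Ssbp2 (r = 0.76), Dtx1, Tomm40, Prmt5 and Dalrd3, and for Ngfr, with Foxp4 (r = 0.79), Pde1c, Ebf3, Bcl11a and Islr2.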

How the data were processed

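Single cells of 5 WT cerebella and 10 M-Smo tumors were measured by Drop-seq. The authors made the counts with Drop-seq Tools and STAR (the submitters' processing notes name STAR 5.4b, bcl2fastq 2.18 and Seurat 2.3.0) on mm10 with Cre and SmoM2/EYFP added, and kept tumor barcodes with over 90% mouse reads against a spike-in of human cells. The deposited values are raw UMI counts per gene and barcode, 1 table per animal, not normalized.

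A barcode counted as a cell from 500 UMIs and 500 genes upward, unless its UMIs, genes or mitochondrial share exceeded the median of its animal by over 5 SD. No doublet caller was run. WT and tumor cells were clustered separately (30 neighbors, Louvain resolution 0.8) without the 5 genes, the pathway genes and the transgenes. Names came from markers of 14 classes, of which at least 3 had to be detected. The rule that a class outside the stages needs a mean log2 fold above 1, also in its sub-clusters, was set after the clusters were seen. A sub-cluster of 159 tumor cells led by Tnnc2 and H19 lost the name Astrocyte-like. Members, lists and tests were chosen with earlier results of these data known.

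UMIs were summed per animal and class (at least 10 cells) and tested with edgeR's quasi-likelihood test (TMM, filterByExpr, no covariate between groups, the animal as a block between stages). An adjusted p under 0.05 (Benjamini-Hochberg over all genes tested) was a call. Animals are separate mice, 5 per group. Levels with equal stage shares were compared by 2-sided exact permutation. Named were the 5 genes, in each group comparison of CGNP-like cells the 6 called pathway genes of largest change, and the 5 genes most like each member of at least 50 CPM in a profile. Alternatives were other size factors, DESeq2, no filter, 4 SD, resolution 1.2, a block or covariate, thinned sums and omission of each animal or of hemoglobin-led clusters. Tools were edgeR 4.0.16 and DESeq2 1.42.0 in R 4.3.3, and igraph 0.11.9, scikit-learn 1.9.0, pandas 2.3.3 and scipy 1.17.1 in Python 3.11.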

Additional observations from a re-analysis of the deposited data

Results flagged for a closer look

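In 7 of 67 groups of 4 or 5 animals with at least 20 UMIs of the gene, the highest animal stood apart from the others by Dixon's criterion. Chance alone meets it in about 1 group in 20. The 67 groups are not independent, since the sums of CGNP-like cells hold the cells of the stages. Vehicle replicate 1 accounts for 3 of the 7: Ntrk3 at 191 CPM in Node B-like cells (next highest 127) and at 154 CPM in CGNP-like cells (next 94.7), and Ngfr at 88.8 CPM in Node A-like cells (next 58.4). Of the 631 Ntrk3 UMIs in its CGNP-like cells, 457 were in Node B-like cells. This tumor had the lowest median depth of the tumors, 1141 UMIs per cell, and the highest Node B-like share, 61.6%. Ngfr in Node C-like cells of WT replicate 3 was at 66.5 CPM (next 47.4). Ntrk2 in Astrocyte-like cells of vismodegib replicate 1 was at 1234 CPM (next 989). In Oligodendrocyte-like cells Ntrk2 was at 257 CPM in WT replicate 2 (next 95.7) and at 265 CPM in vismodegib replicate 2 (next 122), on 17 and 9 UMIs.

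The effect of vismodegib differed between stages, by the interaction test in edgeR, for Ntrk3 (adjusted p = 0.000221) and Ngfr (adjusted p = 0.00419). The difference between vehicle tumors and WT differed between stages for Ntrk3 (adjusted p = 9.49e-12), Ngfr (2.94e-06), Ntf3 (0.00173) and Ntrk2 (0.0103).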

How the results depend on the processing

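Over all alternatives the falls of Ntrk3 under vismodegib in Node A-like, Node B-like and Node C-like cells and the rise of Ntf3 into Node D-like cells kept their calls. Bdnf under vismodegib was lost without a filter (log2 change -1.18) and with the replicate number as a block (-1.10, adjusted p = 0.0663), and without vehicle replicate 1, 2 or 3 or vismodegib replicate 2, 4 or 5 (range over left-out animals -1.21 to -0.97). Bdnf in vehicle tumors against WT was lost with DESeq2 (1.09), without hemoglobin-led clusters (0.72), with the block (1.15) and without WT replicate 1, 2 or 5 (0.92 to 1.33). Whether equal replicate numbers pair the animals cannot be told from these counts. Correlations of deviations from the group means ran from -0.145 to 0.404 for vehicle and vismodegib and from -0.186 to 0.009 for WT and vehicle. Only numbers 4 and 5 of the tumors matched best with their own. The vehicle and vismodegib tumor of each number also have adjacent serial numbers.

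In WT, Ngfr from Node A-like to Node B-like cells changed sign without hemoglobin-led clusters (0.0018). Ngfr into Node C-like cells lost its call with 4 SD (0.54), without those clusters (0.41) and without WT replicate 1 (0.52 to 0.83), and Ntf3 at that step changed sign at resolution 1.2 (-0.0253), without those clusters (-0.45) and without WT replicate 3 (-0.0688 to 0.24). In tumors, from Node A-like to Node B-like cells, Ngfr was lost with DESeq2 (-0.49) and without vehicle replicate 4 or 5 (-0.58 to -0.38), and Ntf3 with DESeq2 (-1.18), 4 SD (-0.71), resolution 1.2 (-0.85) and without vehicle replicate 4 or vismodegib replicate 4 (-1.27 to -0.90). Ntrk2 there changed sign with 4 SD (0.0620), resolution 1.2 (0.12) and without vismodegib replicate 4 (-0.11 to 0.0472). Ngfr into Node C-like cells was lost with DESeq2 (-0.26) and without each vehicle tumor (-0.63 to -0.33), and Ntrk3 into Node D-like cells was called with 4 SD (-0.58). Ntrk2 in Node C-like cells of vehicle tumors against WT changed sign in thinned sums (0.11) and without WT replicate 4 (-0.34 to 0.0724). Ngfr in Node C-like cells under vismodegib did without vehicle replicate 1 (0.17) and vismodegib replicate 4 (0.0231), over a range of -0.55 to 0.17. The standardised Ntrk2 difference ranged from 16.1 to 28.8 CPM over left-out animals. That of Ntf3 went from 6.22 to 2.55 CPM without vismodegib replicate 5, and that of Ngfr from -22.1 to -14.1 CPM without vehicle replicate 1. The cause of these changes was not tested.

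Counts of genes called under vismodegib moved, in Node A-like cells from 222 to 396 (DESeq2), 394 (no filter), 393 (serial number, low or high, as a covariate) and 473 (set as a covariate). In Node B-like cells they went from 311 to 604, 491, 569 and 738 in the same order. The split by serial number sets replicates 4 and 5 of each treatment apart from the others, and so is close to the split by set. In Node C-like cells 65 became 141, 257, 166 and 206, 100 with 4 SD and 98 with the block, and in Node D-like cells 19 became 78, 170, 86 and 114, 4 at resolution 1.2, 3 without hemoglobin-led clusters and 39 with the block. In Astrocyte-like cells 20 became 34 (DESeq2), 62 (no filter), 40 (resolution 1.2) and 40 (serial number), and in Oligodendrocyte-like cells 125 became 281 (no filter), 61 (4 SD), 199 (block) and 223 (set). Leaving out an animal gave 200 to 329 in Node B-like (lowest without vehicle replicate 5), 33 to 112 in Node C-like (lowest without vismodegib replicate 4), 5 to 38 in Node D-like (lowest without vehicle replicate 2), 0 to 35 in Astrocyte-like (0 in edgeR without vehicle replicate 5, where 179 of 2021 genes had an unadjusted p under 0.05 and DESeq2 was not run) and 29 to 266 in Oligodendrocyte-like cells (lowest without vismodegib replicate 5). Against WT, 5619 became 3716 over the lineage in thinned sums. Node A-like cells went from 3238 to 5008 (no filter) and 1274 (thinned), Node B-like from 3650 to 6108, 1909 and 2377 (without hemoglobin-led clusters), Node C-like from 2390 to 4001 and 1285, Node D-like from 1618 to 2448 and 668, Astrocyte-like from 642 to 997 and 85, and Oligodendrocyte-like from 651 to 1302 and 429. The difference in the share of CGNP-like cells with a Bdnf UMI went from -0.40 to 0.0252 percentage points when cells were thinned to 500 UMIs. Bdnf in the lineage and each gene outside it rest on few UMIs, and absence cannot be shown at this depth.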

Other observations

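Some genes that respond to Trk and other growth factor signaling also differed in Oligodendrocyte-like cells. The number of genes called in this class moved widely when single animals were left out. Under vismodegib 4 of the 5 tested fell in edgeR (Dusp6, Egr1, Fos and Spry2), with a median log2 change of -1.49, where 3.91% of all genes were called. In Astrocyte-like cells 1 of 5 fell (Dusp6), where 1.03% of all genes were called, and the median was 0.12. In Node C-like cells none of 6 was called, where 0.749% of all genes were, with a median of -0.25, and in Node D-like cells Fos alone of 3 fell, where 0.275% of all genes were called. Whether these effects differ between classes was not tested.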
